A study of Homo sapiens with 6 samples.

Results

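Integrins and laminins are the receptors and the ligands through which an epithelium holds on to its basement membrane. The 38 genes described here are defined by their symbols: 18 integrin alpha genes (ITGA1 to ITGA11, ITGAD, ITGAE, ITGAL, ITGAM, ITGAV, ITGAX and ITGA2B), 8 integrin beta genes (ITGB1 to ITGB8) and 12 laminin chain genes (those of the LAMA, LAMB and LAMC series). They are 38 of the 58735 genes in the count table. Enough reads for a test between the groups were found for 26 of them (12 alpha, 4 beta and 10 laminin genes), among 16561 genes tested in all.

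Gene expression was measured by RNA-seq in cells differentiated from the human embryonic stem cell line H9 (WA09) towards the third pharyngeal pouch endoderm (3PPE), the epithelium from which the thymus arises. The comparison asks which genes differ when HOXA3, a homeobox gene of the pharyngeal region, is targeted by siRNA. Both groups were wild-type H9 cells, 1 cell line without a genetic change, and were harvested at day 9 of the differentiation. They started on gelatin with a feeder layer of mouse embryonic fibroblasts (MEF), received Activin A, WNT3A and the ROCK inhibitor Y-27632 and then Activin A with B27, and were reseeded at day 4 onto Matrigel, a laminin-rich basement membrane extract, in medium with B27, RA, SB431542, BMP4 and IWP2. At day 7 the 3 NC cultures received a negative control siRNA (siControl) and the 3 Si-HOXA3 cultures an siRNA against HOXA3, both by lipofection, followed by opti-MEM medium. The labels call the samples triplicates without saying how the cultures were separated, and the study describes its repeats as independent biological ones. The p-values measure the spread between these libraries.

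Each integrin is a pair of 1 alpha and 1 beta chain that spans the plasma membrane. The alpha chain largely sets which ligand is bound, and the tail of the beta chain recruits talin and kindlin, which link the receptor to actin. Laminins are cross-shaped secreted trimers of 1 alpha, 1 beta and 1 gamma chain, and they polymerize into the first sheet of a basement membrane. In epithelia the laminin-binding integrins contain ITGA3 or ITGA6 with ITGB1 or, in hemidesmosomes, ITGA6 with ITGB4.

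Total counts were between 14117150 and 15282307 per library, so that 3 counts, the limit that a count of 0 allows, corresponded to between 0.197 and 0.211 CPM (counts scaled to the normalized library size). Such limits cover counting error only. HOXA3 itself had 248, 240 and 236 counts in NC and 159, 199 and 220 in Si-HOXA3, and its CPM overlapped between the groups (log2 fold change -0.27, SE 0.157, adjusted p = 0.828 by edgeR's quasi-likelihood test with Benjamini-Hochberg adjustment). By other methods, the study reported a significant reduction of HOXA3 mRNA (qRT-PCR) and protein (Western blot) after this siRNA, and weaker immunofluorescence. Si-HOXA3 replicate 2 stood apart: between it and the other libraries of its group the chi-square per degree of freedom over genes was 31 and 34.1, against 4.83 to 9.48 for the other pairs within a group. Among the markers of the labelled cell type, EPCAM and CDH1 were abundant (at least 3593 counts in every library) and EYA1 had 477 to 633 counts, whereas FOXA2, SOX17, PAX1 and PAX8 had at most 3 counts, TBX1 at most 10, GATA4 at most 15 and PAX9 at most 16 in any library. All 9 amnion and trophoblast markers were detected, with a summed level of 3010 to 3260 CPM in NC and 3110 to 3360 CPM in Si-HOXA3. The 9 mesenchyme markers, with COL1A1 in front, summed to 4520 to 4690 CPM in NC and 4540 to 5040 CPM in Si-HOXA3. Summed levels in NC and Si-HOXA3 were 958 to 974 and 969 to 999 CPM for the 12 markers of the third pouch and foregut, 1260 to 1310 and 1320 to 1480 CPM for pluripotency, 115 to 127 and 81.4 to 122.7 CPM for endothelium and 65.6 to 83.9 and 77 to 95.8 CPM for neural markers. The part of these other cell types in the results was not tested. In bulk RNA, fewer cells of a type and less RNA per cell cannot be told apart.

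Stretches of sequence upstream of 4 of the genes are shown because they belong to a pair of chromosomal neighbours with very different levels (LAMB1 and LAMB4) and to the pair of neighbours with a low unadjusted p in the comparison (ITGA1 and ITGA2). Each is the 250 bases before the start of the gene in RefSeq (GRCh38.p14), written 5′ to 3′ on the strand of the gene. The GENCODE 29 starts of ITGA1, ITGA2 and LAMB1 lie inside these windows. In the first pair, LAMB1 (chr7:108003162-108003411, minus strand) and LAMB4 (chr7:108130362-108130611, minus strand), capitals mark each CG dinucleotide, the CpG sites at which DNA methylation occurs.
LAMB1: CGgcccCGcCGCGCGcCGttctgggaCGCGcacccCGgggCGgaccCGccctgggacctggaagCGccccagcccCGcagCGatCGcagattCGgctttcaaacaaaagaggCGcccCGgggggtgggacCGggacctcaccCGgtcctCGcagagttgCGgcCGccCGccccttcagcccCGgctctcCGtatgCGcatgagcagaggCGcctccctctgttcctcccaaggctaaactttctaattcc
LAMB4: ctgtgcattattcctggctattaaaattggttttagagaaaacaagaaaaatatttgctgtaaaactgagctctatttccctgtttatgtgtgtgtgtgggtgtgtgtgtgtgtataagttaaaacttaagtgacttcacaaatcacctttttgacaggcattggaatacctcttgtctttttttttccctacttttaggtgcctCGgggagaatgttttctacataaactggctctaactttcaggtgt
The LAMB1 window held 28 CG dinucleotides and the LAMB4 window 1. Over all 35116 RefSeq promoter windows of this length the median was 11, with 28 or more in 15.9% and 1 or fewer in 14.7%. In the second pair, ITGA1 (chr5:52787666-52787915, plus strand) and ITGA2 (chr5:52989102-52989351, plus strand), capitals mark the letters TAAT or, for the other strand, ATTA, the core found in many homeodomain binding motifs.
ITGA1: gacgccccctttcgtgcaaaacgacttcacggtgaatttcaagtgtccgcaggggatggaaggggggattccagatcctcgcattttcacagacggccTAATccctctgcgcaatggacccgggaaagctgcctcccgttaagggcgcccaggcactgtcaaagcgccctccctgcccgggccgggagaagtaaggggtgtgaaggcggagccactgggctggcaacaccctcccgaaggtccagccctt
ITGA2: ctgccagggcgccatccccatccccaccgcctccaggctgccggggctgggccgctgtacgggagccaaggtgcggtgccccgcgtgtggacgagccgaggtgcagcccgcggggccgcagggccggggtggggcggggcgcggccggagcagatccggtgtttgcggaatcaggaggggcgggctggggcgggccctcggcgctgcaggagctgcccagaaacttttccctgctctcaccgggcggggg
ITGA1 held 1 such match and ITGA2 none, and 47.4% of all windows held at least 1. Only 26 of the 38 genes were found in the promoter table, too few for a statement over the whole group.

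Laminin chain transcripts were the most abundant of the 38 genes, led by LAMC1, LAMB1 and LAMA5. Levels between genes are compared here as CPM per kilobase of exon (CPM per kb), averaged over all 6 libraries. LAMC1, the common gamma chain, was highest at 131.7 CPM per kb, and LAMB1, the common beta chain, followed at 127.5 CPM per kb. In NC these levels were 142 ± 3.59 and 132.1 ± 2.63 CPM per kb (SD, n = 3), and both genes stood at the 99.2 percentile of protein-coding genes.

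**Figure D1:**
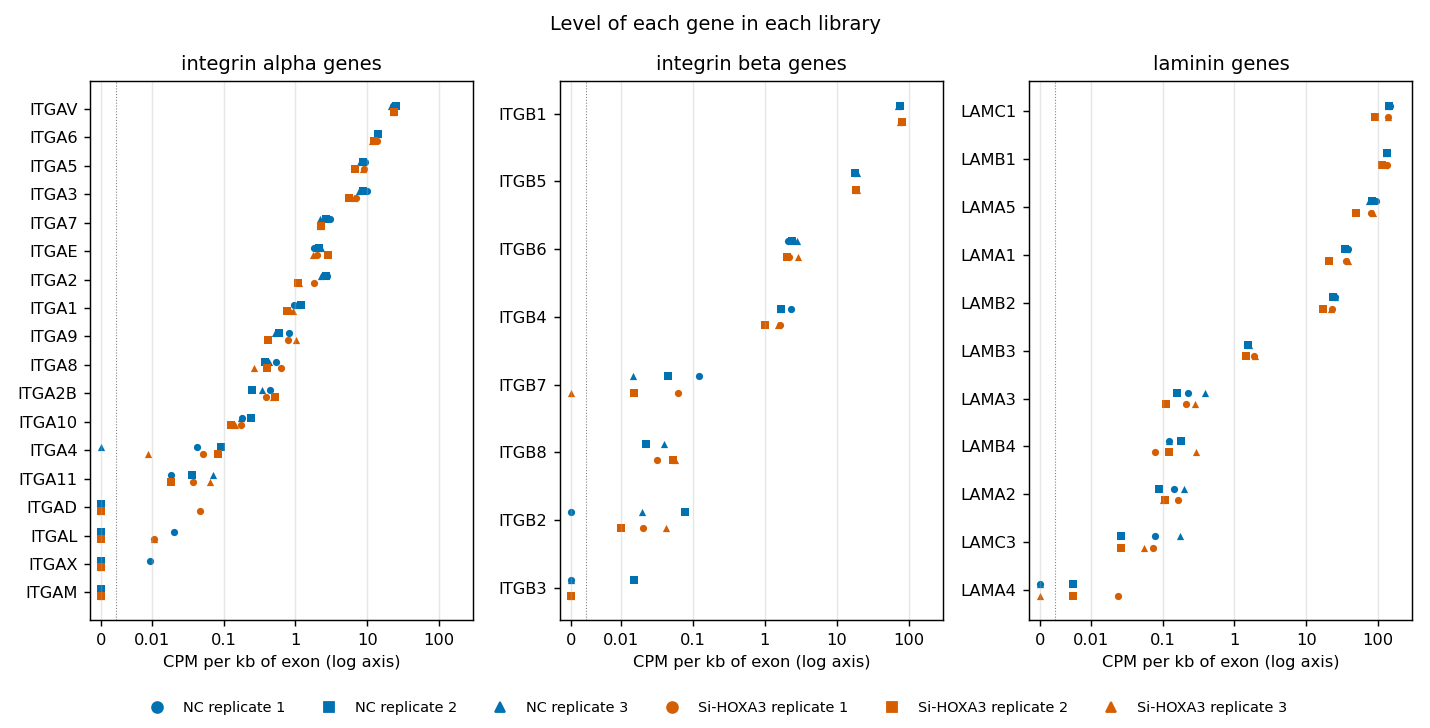
Level of the integrin and laminin genes in each library, as CPM per kb of exon on a log axis, in 3 panels for integrin alpha, integrin beta and laminin genes. Each point is 1 library, with NC in blue, Si-HOXA3 in orange and the replicate number as the marker, and points left of the dotted line are libraries with 0 counts. LAMC1, LAMB1, LAMA5 and ITGB1 lie at the right, between 49.3 and 145 CPM per kb in every library, and ITGAM is at 0 throughout.

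LAMA5 (77.7 CPM per kb), the alpha chain most widespread in epithelial basement membranes, came next, followed by ITGB1 (76.5 CPM per kb), the beta chain shared by the largest number of integrins. Their NC levels, 84.2 ± 10.0 for LAMA5 and 74.6 ± 2.99 CPM per kb for ITGB1 (SD, n = 3), were within 1 SD of LAMA5 of each other, so their order is not settled. LAMA1, the alpha chain of early embryonic basement membranes, followed at 34.2 CPM per kb. ITGAV (23.2 CPM per kb), an alpha chain of receptors for fibronectin and vitronectin, and LAMB2 (22.6 CPM per kb), the second beta chain, had neighbouring levels that differed by less than their spread. ITGB5 (18.5 CPM per kb), a partner of ITGAV, lay above the laminin receptor chain ITGA6 (13.2 CPM per kb). The fibronectin receptor chain ITGA5 (8.4 CPM per kb) and the laminin receptor chain ITGA3 (7.56 CPM per kb) closed the group of genes with more than 7 CPM per kb. When the longest annotated transcript replaced the union of exons as the length, the 12 highest genes were the same but the order at the top turned, with LAMB1 at 180 above LAMC1 at 140.3 and ITGB1 at 121.5 above LAMA5 at 97.2 CPM per kb.

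The next 4 genes had levels of about 2 CPM per kb. They were ITGA7 (2.43 CPM per kb), a laminin receptor chain best known from muscle, ITGB6 (2.38 CPM per kb), an epithelial partner of ITGAV that activates latent TGF-beta, ITGAE (2.15 CPM per kb), which as a protein binds E-cadherin, and ITGA2 (1.94 CPM per kb), a receptor chain for collagen and laminin. LAMB3, ITGB4, ITGA1, ITGA9, ITGA8, ITGA2B, LAMA3, ITGA10, LAMB4 and LAMA2 were tested at levels from 1.65 down to 0.134 CPM per kb. LAMB3 is the beta chain that joins LAMA3 in the laminin of hemidesmosomes, and its level of 1.65 CPM per kb stood beside 0.229 CPM per kb for LAMA3. With the longest annotated transcript as the length, the levels were 1.79 for LAMB3 and 0.316 CPM per kb for LAMA3. The size of this gap depends on the length used, and levels of single isoforms were not computed.

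The remaining 12 genes had too few reads to be tested. LAMC3, LAMA4, ITGA4, ITGA11, ITGB8 and ITGB7 had at most 20 counts in any library. ITGAD, ITGAL, ITGAM, ITGAX and ITGB2, the chains of the leukocyte integrins, and ITGB3, the beta chain of the platelet integrin, had at most 8 counts in any library. ITGAM had 0 counts in all 6 libraries, and ITGAX and ITGB3 had 1 count each over all of them. The 8 leukocyte and platelet markers were likewise near 0, with a summed level of 2.11 to 2.55 CPM in NC and 1.6 to 2.75 CPM in Si-HOXA3, and 4 of the 8 had no count at all. ITGA2B, the alpha chain of the platelet integrin, differed from these in having enough reads for a test. It had 37, 21 and 29 counts in NC and 31, 44 and 38 in Si-HOXA3, with overlapping groups. ITGB3 shares 50.7% of its 50-base stretches with the gene AC068234.1, which had 0 counts too, so the count of ITGB3 is uncertain.

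LAMA5 and LAMB1 made up most of the laminin alpha and beta levels in every library. Of the summed laminin alpha level (CPM per kb), LAMA5 made up 66.4% to 71% and LAMA1 28.7% to 33.1%. All shares given here, of laminin and integrin chains, use the union of exons as the length and would change with another length. Mean levels were 77.7 for LAMA5 and 34.2 CPM per kb for LAMA1 with that length. With the longest annotated transcript they were 97.2 and 52.3 CPM per kb, and shares were not computed in that way. LAMB1 made up 82.9% to 86% of the laminin beta level, LAMB2 12.8% to 16% and LAMB3 0.916% to 1.31%. The share of LAMB2 was 15.1% to 16% in NC and 12.8% to 15% in Si-HOXA3, and that of LAMB3 0.916% to 1.02% in NC and 1.09% to 1.31% in Si-HOXA3, without overlap in either. Protein was not measured here. Si-HOXA3 replicate 2, which stood apart in its levels, had 69.9% LAMA5 and 29.8% LAMA1, inside the range of the other libraries, but its 86% LAMB1 and 12.8% LAMB2 lay outside the 82.9% to 84.2% and 14.5% to 16% of the other 5.

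**Figure D2:**
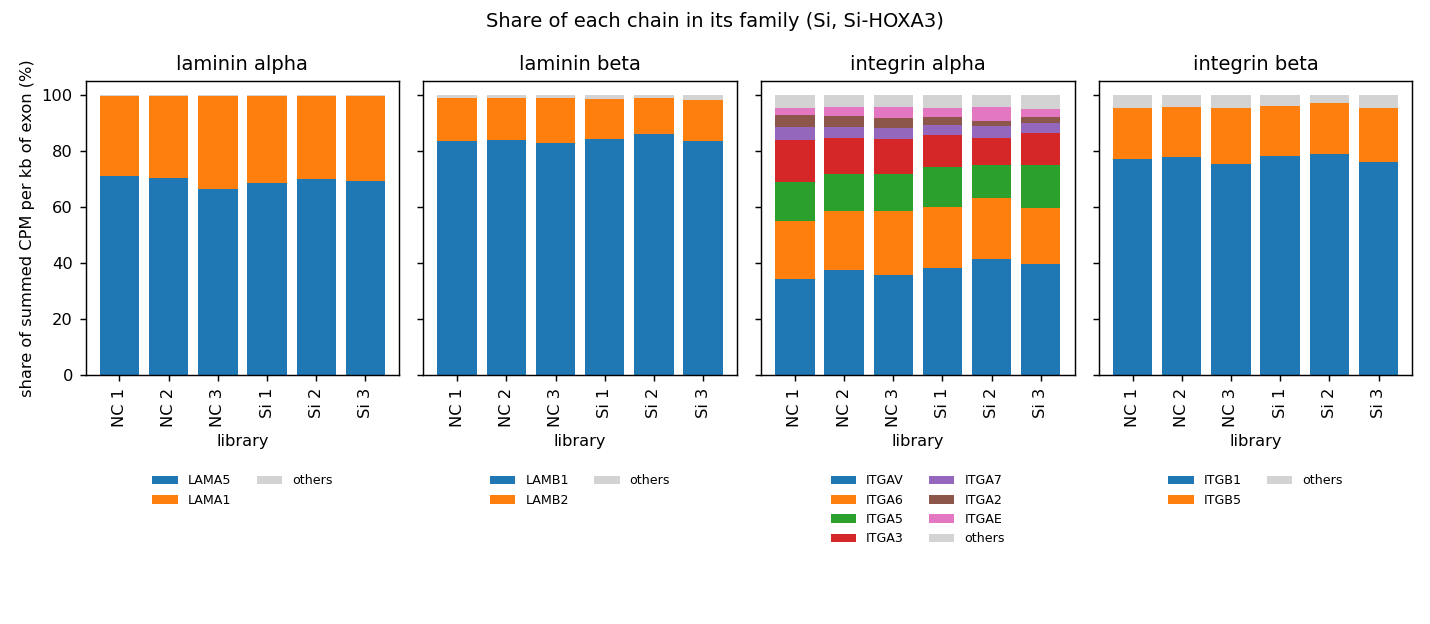
Share of each chain in its family in each library, in percent of the summed CPM per kb of exon, for laminin alpha and beta and integrin alpha and beta chains (stacked bars from 0 to 100%). Chains that reach 3% in some library are coloured and the rest are grey. LAMA5 makes up 66.4% to 71% of the laminin alpha level and ITGB1 75.3% to 79% of the integrin beta level in all 6 libraries.

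Among integrin beta chains ITGB1 made up 75.3% to 79% and ITGB5 18% to 20% of the summed level. Among integrin alpha chains ITGAV was the most abundant, with 34.3%, 37.6% and 35.6% in NC and 38.1%, 41.4% and 39.5% in Si-HOXA3. ITGA2 had 4.14%, 3.93% and 3.73% in NC and 2.92%, 1.91% and 1.95% in Si-HOXA3. ITGB4 had 2.34%, 1.67% and 1.72% of the beta level in NC and 1.62%, 0.973% and 1.55% in Si-HOXA3. The shares of these 3 genes did not overlap between the groups, and since the level of ITGAV itself overlapped, the larger share of ITGAV went with lower values of other alpha chains. With 3 libraries against 3, an exact permutation test cannot give a two-sided p below 0.1, so the shares are a description. How often shares do not overlap in other gene families was not computed. The shares named as not overlapping, of integrins and laminins alike, therefore have no background beside them. ITGA6 made up 20.3% to 23% with overlapping groups. ITGA3 had 15.1%, 12.9% and 12.6% in NC and 11.3%, 9.82% and 11.4% in Si-HOXA3, also without overlap. Its means were 13.5% ± 1.4 in NC and 10.8% ± 0.87 in Si-HOXA3 (SD, n = 3).

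Between Si-HOXA3 and NC, no member passed the test at an adjusted p of 0.05 (0 of 26 by edgeR's quasi-likelihood test with Benjamini-Hochberg adjustment, where 1 of all 16561 genes, 0.00604%, did). At an unadjusted p of 0.05 there were 3 of 26 (11.5%), ITGA1, ITGA2 and ITGA3, all lower in Si-HOXA3, beside a background of 6.36% of all tested genes in either direction and 2.57% in the lower direction. No member was higher at that level, against 3.79%. Other analyses placed ITGA2 past an adjusted 0.05 as the single member, namely DESeq2 (0.229% of all genes passed), limma-voom with quality weights (0.405%) and edgeR without the filter on low counts (0.29%). None passed with the replicate number as a block (0.0242%) or without Si-HOXA3 replicate 2 (0.14%). Unadjusted, 3 of 26 had p under 0.05 with DESeq2 (background 5.65%) and limma-voom (13.4%), 5 of 26 with the block (6.7%), 6 of 37 without the filter (5.4%), 6 of 26 after a correction for length and GC (7.39%) and 3 of 27 without that library (10.7%). In GENCODE 29 (GRCh38) ITGA1 spans chr5:52787896-52959210, ITGA2 chr5:52989326-53094779 and ITGA3 chr17:50055968-50090481, all on the plus strand. The 3 genes encode alpha chains that pair with ITGB1. ITGA1 and ITGA2 are collagen receptor chains and ITGA3 is a laminin receptor chain.

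ITGA2 was the member with the largest difference. Its level was 21.6, 20.8 and 17.9 CPM in NC and 14.3, 8.51 and 8.94 CPM in Si-HOXA3, from 322, 315 and 273 against 208, 128 and 127 counts. The groups did not overlap, and all 3 Si-HOXA3 libraries lay below the lowest NC library. The means were 20.1 ± 1.97 and 10.6 ± 3.22 CPM (SD, n = 3), a log2 fold change of -0.93 (SE 0.200) with an unadjusted p of 0.00071 and an adjusted p of 0.458 by edgeR's quasi-likelihood test. Leaving out Si-HOXA3 replicate 2 gave -0.79 and an adjusted p of 0.0819. The adjusted p was 0.0223 with DESeq2, 0.0342 with limma-voom, 0.000205 without the filter on low counts and as high as 0.997 over all alternatives.

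ITGA3 had 97.8, 85.0 and 74.7 CPM in NC and 68.5, 54.2 and 64.6 CPM in Si-HOXA3. Every Si-HOXA3 library was below every NC library, with NC replicate 3 nearest. The log2 fold change was -0.46 (SE 0.129, unadjusted p = 0.00434, adjusted p = 0.553 by edgeR's quasi-likelihood test), and it was -0.37 without Si-HOXA3 replicate 2.

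ITGA1, which lies beside ITGA2 on chromosome 5, had 17.9, 22.2 and 20.5 CPM in NC and 14.6, 13.96 and 17.3 CPM in Si-HOXA3. These groups did not overlap either, but NC replicate 1 and Si-HOXA3 replicate 3 were close to each other. The log2 fold change was -0.41 (SE 0.145, unadjusted p = 0.0174, adjusted p = 0.72 by edgeR's quasi-likelihood test), and the unadjusted p in the same test was 0.0856 when NC replicate 2 was left out and 0.0554 when Si-HOXA3 replicate 1 was. ITGA1 shares 5.73% of its 50-base stretches with other genes, among them PELO, which lies inside it, so its count is uncertain to that extent. PELO had 441, 460 and 563 counts in NC and 452, 592 and 454 in Si-HOXA3.

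**Figure D3:**
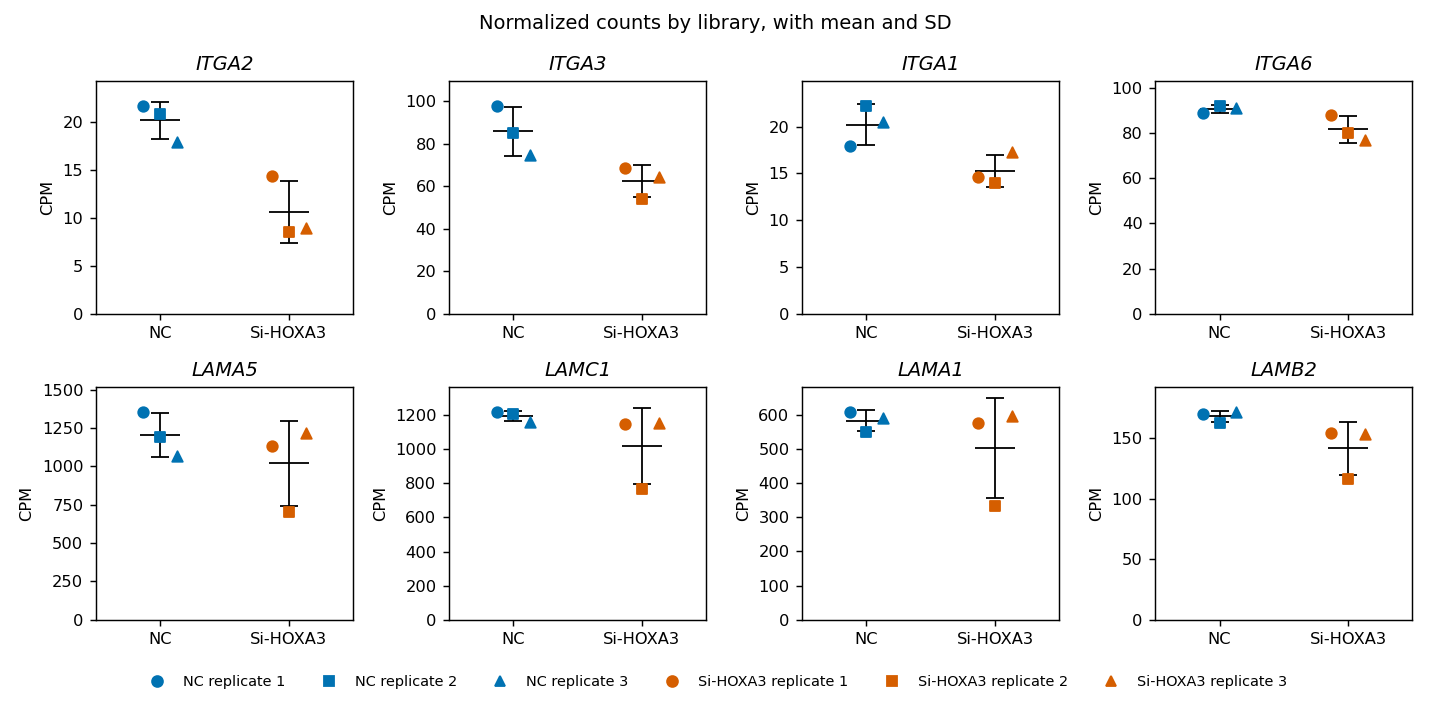
Normalized counts (CPM) of 8 genes in each library, with NC in blue, Si-HOXA3 in orange, the replicate number as the marker and bars for the mean and SD (n = 3). For ITGA2, ITGA3, ITGA1, ITGA6, LAMC1 and LAMB2 the groups do not overlap, and the lowest point is Si-HOXA3 replicate 2 for all genes shown except ITGA6.

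The groups did not overlap for 7 of 26 members, all lower in Si-HOXA3 (ITGA1, ITGA2, ITGA3, ITGA6, ITGA10, LAMB2 and LAMC1), against a background of 6.88% of all tested genes in that direction. For the higher direction the count was 0 of 26, against 6.41%. ITGA6 had 88.9, 92.1 and 91.3 CPM in NC and 88.1, 80.2 and 76.8 CPM in Si-HOXA3. The difference of -0.15 on the log2 scale had an unadjusted p of 0.146 and an adjusted p of 0.830 by edgeR's quasi-likelihood test, a gap of less than 1 CPM separating the nearest libraries. ITGA10, a collagen receptor chain of cartilage, had only 12 to 23 counts per library, 1.14, 1.52 and 1.11 CPM in NC and 1.1, 0.798 and 0.916 CPM in Si-HOXA3, or -0.42 on the log2 scale (unadjusted p = 0.287 by the same test).

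The other integrin alpha chains overlapped between the groups. ITGAV had 186, 207.1 and 178 CPM in NC and 194, 192 and 188 CPM in Si-HOXA3 (log2 fold change 0.01). ITGA5 had 70.4, 66.5 and 60.8 CPM in NC and 67.7, 50.4 and 66.2 CPM in Si-HOXA3, with replicate 2 the low one (log2 fold change -0.10). ITGA7 had 19.1, 17.2 and 14.2 CPM in NC and 14.1, 14.4 and 14.01 CPM in Si-HOXA3, so that only NC replicate 3 was as low as Si-HOXA3 (log2 fold change -0.25). ITGAE was highest in Si-HOXA3 replicate 2, with 12.02, 14.2 and 15.26 CPM in NC and 13.5, 19.1 and 11.7 CPM in Si-HOXA3 (log2 fold change 0.09). Genes on the other strand overlap 505 bases of its exons, among them HASPIN with 261 to 299 counts per library. Whether the counting used strand is not known, so the count of ITGAE is uncertain to that extent.

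Of the 4 tested beta chains, ITGB1, ITGB5 and ITGB6 had log2 fold changes between -0.04 and 0.07 and ITGB4, a hemidesmosome chain, one of -0.42. ITGB1 had 455, 463 and 428 CPM in NC and 474, 485 and 454 CPM in Si-HOXA3 (log2 fold change 0.07). ITGB5 had 117, 115 and 122 CPM in NC and 117, 119 and 125 CPM in Si-HOXA3 (log2 fold change 0.03). The level of the shared partner chain ITGB1 thus overlapped between groups in which ITGA1, ITGA2 and ITGA3 did not. ITGB1 shares 8.86% of its 50-base stretches with the pseudogene AC022149.1, which had 233 to 307 counts per library. ITGB6 had 9.74, 11.2 and 12.97 CPM in NC and 10.2, 9.44 and 13.5 CPM in Si-HOXA3 (log2 fold change -0.04). It shares 17.8% of its 50-base stretches with the gene AC092153.1, which had at most 1 count in any library, so the count of ITGB6 is uncertain to that extent. ITGB4 had 15.6, 11.2 and 11 CPM in NC and 11.1, 6.72 and 10.4 CPM in Si-HOXA3, from 101 to 232 counts, with overlapping groups and an unadjusted p of 0.0797 by edgeR's quasi-likelihood test. That p was 0.0346 with the replicate block and 0.219 without Si-HOXA3 replicate 2, where the log2 fold change was -0.23.

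Among the laminins, 1 Si-HOXA3 library lay well below the other 5 in LAMA5, LAMA1 and LAMC1. LAMA5 had 1353, 1190 and 1068 CPM in NC and 1133, 705 and 1219 CPM in Si-HOXA3. LAMA1 had 608, 549 and 591 CPM in NC and 575, 333 and 597 CPM in Si-HOXA3. In both genes Si-HOXA3 replicate 2 was far below all others while its 2 companions lay within the NC range. The log2 fold changes were -0.24 (SE 0.187) for LAMA5 and -0.22 (SE 0.187) for LAMA1, and without Si-HOXA3 replicate 2 they were -0.04 and 0.01.

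LAMC1 had 1217, 1204 and 1159 CPM in NC and 1147, 764 and 1151 CPM in Si-HOXA3, and LAMB1 had 1097, 1075 and 1054 CPM in NC and 1065, 926 and 1011 CPM in Si-HOXA3. The groups of LAMC1 did not overlap, but 2 of the Si-HOXA3 libraries were less than 1 NC standard deviation (30.1 CPM) below the lowest NC library. Log2 fold changes were -0.23 (SE 0.155, adjusted p = 0.843 by edgeR's quasi-likelihood test) for LAMC1, -0.06 without Si-HOXA3 replicate 2, and -0.10 for LAMB1. LAMB2 had 170, 163 and 172 CPM in NC and 155, 117 and 154 CPM in Si-HOXA3. Its log2 difference was -0.25 (unadjusted p = 0.0627 by the same test), or -0.13 without that library. Exons of LAMB1, LAMA5 and LAMA1 are overlapped by genes on the other strand, DLD with 1768 to 2322 counts for LAMB1. The overlap is at most 291 of 8140 exon bases in LAMB1, 362 of 14291 in LAMA5 and 1754 of 15872 in LAMA1. The sources used here do not say whether the counting used strand, so reads from these overlapping bases cannot be told apart.

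**Figure D4:**
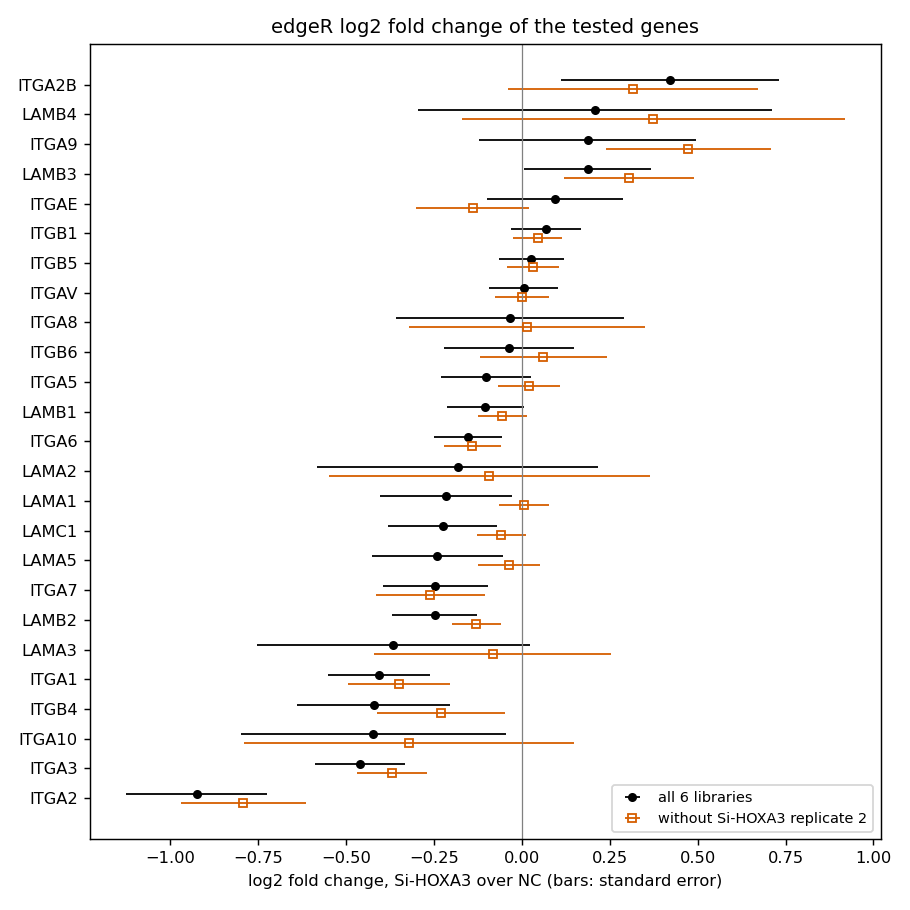
Log2 fold change of the tested genes between Si-HOXA3 and NC (edgeR), with bars of 1 standard error, for all 6 libraries (black circles) and without Si-HOXA3 replicate 2 (open orange squares). ITGA2, ITGA3 and ITGA1 are at -0.93, -0.46 and -0.41 with all libraries and at -0.79, -0.37 and -0.35 without it, whereas LAMA5, LAMA1 and LAMC1 move from -0.24, -0.22 and -0.23 to -0.04, 0.01 and -0.06.

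The summed laminin level was 4567, 4296 and 4168 CPM in NC and 4200, 2933 and 4255 CPM in Si-HOXA3, with Si-HOXA3 replicate 2 lowest. Over the 26 tested members 18 had a log2 fold change below 0, against a background of 49.6%, and the median was -0.13 beside 0.002 over all tested genes. By kind the median was -0.126 for alpha, -0.005 for beta and -0.199 for laminin genes. Without Si-HOXA3 replicate 2, 15 of 27 members were below 0 (background 49.5%), and the median was -0.037 in all, -0.14 for alpha and -0.046 for laminin genes.

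The members are long transcripts, and Si-HOXA3 replicate 2 had low values in long transcripts generally. The median longest annotated transcript was 5720 bases over the tested members and 3763 bases over all tested protein-coding genes. Spearman's correlation between transcript length and a library's log2 deviation from the other 2 libraries of its group, across 16561 genes, was -0.356 in Si-HOXA3 replicate 2, 0.24 and 0.256 in replicates 1 and 3 and between -0.023 and -0.001 in NC, a description over genes that share a library and are not independent. Si-HOXA3 replicate 2 is 1 of the 2 libraries that replicates 1 and 3 are each set against, so their positive values are not separate observations. Over the 26 members the correlation was -0.582 in Si-HOXA3 replicate 2. In this library 21 of 26 members were below the mean of the other 2 libraries of the group. Their median deviation was -0.29 on the log2 scale, beside 0.008 over all 16561 tested genes. The share of all tested genes below that mean was not computed.

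**Figure D5:**
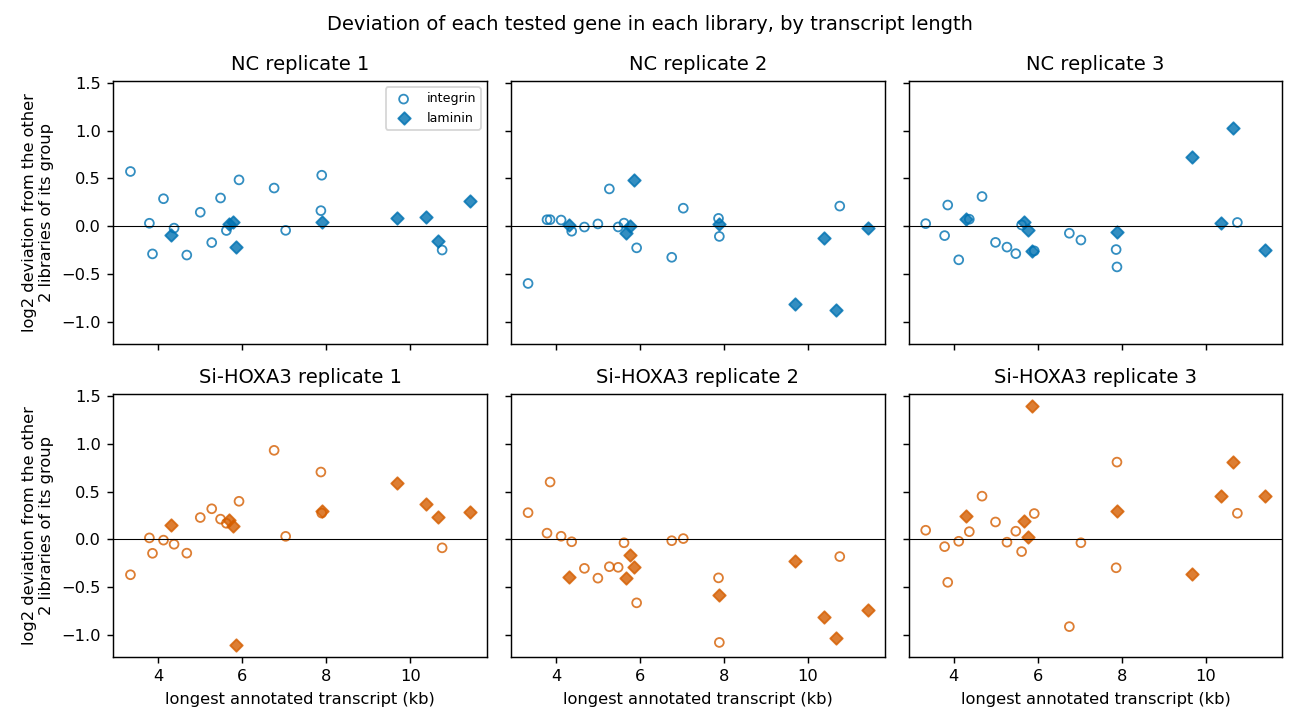
Log2 deviation of the tested genes in a library from the other 2 libraries of its group, against the length of its longest annotated transcript in kilobases, 1 panel per library. Open circles are integrins and filled diamonds laminins. In Si-HOXA3 replicate 2 most genes lie below 0, among the long ones LAMA3 at -1.04, LAMA1 at -0.82 and LAMA5 at -0.74 but ITGA1 at -0.18, and the lowest is ITGA9 at -1.08. Over all 26 tested members Spearman's correlation is -0.582 there and between -0.187 and 0.088 in NC.

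Correcting each library for transcript length and GC left 16 of 26 members below 0 (background 49.6%) and a median of -0.083, and ITGA2 was at -0.85 in that fit. LAMA5 moved the other way, from -0.24 to -0.32 with an unadjusted p of 0.0125 and an adjusted p of 0.568 in edgeR's quasi-likelihood test. In the same fit the unadjusted p was 0.0158 for LAMB2 and 0.0252 for ITGB4. Limma-voom with quality weights also had 16 of 26 below 0 (background 49.4%). The part of transcript length in the differences of single genes was not tested beyond this.

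The other genes of integrin adhesion and of the basement membrane, 62 in 4 lists, had 59 tested genes, of which 3 (5.08%, against 6.36% over all genes) had an unadjusted p under 0.05 in edgeR's quasi-likelihood test and 0 passed after adjustment. Unadjusted, 15 of 59 (25.4%) had p under 0.05 with limma-voom, where 13.4% of all genes did, and 12 of 59 (20.3%) without Si-HOXA3 replicate 2, where 10.7% did. Of the 59, 38 (64.4%) had a log2 fold change below 0 with all libraries, where 49.6% of all tested genes did. Without Si-HOXA3 replicate 2 it was 23 (39%), where 49.5% of all tested genes did. FERMT2, a kindlin that activates integrins, had 103, 106 and 100.0 CPM in NC and 86.8, 82.5 and 78.4 CPM in Si-HOXA3, without overlap (log2 fold change -0.32, unadjusted p = 0.005705 by that test). BCAR1, a scaffold of the focal adhesion kinase pathway, had 312, 293 and 264 CPM in NC and 331, 369 and 355 CPM in Si-HOXA3 (log2 fold change 0.28, unadjusted p = 0.0239 by that test). BCAR1 shares 7.91% of its 50-base stretches with other genes, among them AC009078.3, which overlaps its exons, so its count is uncertain to that extent.

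CYR61, a matrix protein that binds integrins, had 73.3, 70.1 and 64.7 CPM in NC and 98.2, 89.7 and 74.8 CPM in Si-HOXA3 (log2 fold change 0.34, unadjusted p = 0.0156 by the same test). The adaptors with the highest levels were FLNA (123.5 CPM per kb) and ACTN4 (68.9 CPM per kb), which cross-link actin. In the basement membrane list they were HSPG2 (62.6 CPM per kb), perlecan, and AGRN (56.5 CPM per kb), agrin. HSPG2 had 1303, 1092 and 1210 CPM in NC and 1283, 507 and 1403 CPM in Si-HOXA3, the same low library as in LAMA5.

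Of the laminin receptors that are not integrins, RPSA (296 CPM per kb), a ribosomal protein that also binds laminin, and DAG1 (112.5 CPM per kb), dystroglycan, were highest, and RPSA shares 22.9% of its 50-base stretches with pseudogenes. Among the other ligands they were TNC (87.9 CPM per kb), tenascin, and FN1 (64.5 CPM per kb), fibronectin. Their log2 fold changes were -0.18 for DAG1, -0.13 for TNC and -0.22 for FN1, all with replicate 2 of Si-HOXA3 lowest, and 0.18 for RPSA, with that library highest. ILK, the kinase-like adaptor on the tail of ITGB1, was listed with only 19 to 40 counts per library, and 3010 bases of its exons are overlapped by genes on the other strand.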

How the data were processed

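The 6 RNA-seq libraries came from H9-derived 3PPE, 3 each of NC and Si-HOXA3. The authors deposited raw read counts per gene, whole numbers without normalization. The methods name LM-Seq with single reads, and the labels also name a SMARTER kit. The aligner, the counting program, the annotation and the treatment of reads that match several genes are not given in the sources used here. The submitters' processing notes name mouse builds (GRCm38 and mm10), although all 58735 identifiers were human Ensembl genes and were found in GENCODE 29 on GRCh38, from which symbols, positions and exon lengths were taken. CCN1 and CCN2 appear there as CYR61 and CTGF. Total counts ran from 14117150 to 15282307 per library, with 24222 genes at 0 throughout.

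Differences were tested with edgeR 4.0.16 under R 4.3.3 (filterByExpr, TMM normalization, robust quasi-likelihood fit, two-sided test, Benjamini-Hochberg adjustment over all 16561 tested genes). CPM were computed from the deposited counts and TMM library sizes, and divided by the kilobases of the union of exons for levels between genes. Values are mean ± SD over 3 libraries. Alternatives were DESeq2 1.42.0, limma 3.58.1 (voom with sample quality weights), upper-quartile and library-size normalization, no filter, a filter at CPM above 1 in 3 or more libraries, replicate numbers as a block, each library left out, and an offset for transcript length and GC share (mgcv 1.9.3). The last was added after the data were seen. The scripts were tested on simulated data.

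Values per library are given for members among the 16 highest by CPM per kb, with an unadjusted p under 0.05 or with groups that did not overlap. Partner genes named had an unadjusted p under 0.05 or were the 2 highest of their list. ILK, ITGB4, LAMB3, LAMA3, ITGA9 and ITGA2B were named after their values were seen. A member and a marker are counted in totals and not reported singly here. The members, lists and tests were chosen with earlier results of these data known. No 2 libraries of a group differed by as little as sampling noise, so all were counted.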

Additional observations from a re-analysis of the deposited data

How the results depend on the processing

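Of 238 alternative values of log2 fold change for the 17 members with values per library, 220 stayed on the same side of 0 and of the adjusted threshold, 3 (all ITGA2) passed it and 15 changed sign. The number of members with an adjusted p under 0.05 was 0 with edgeR and with each library left out (0 to 0), and 1, ITGA2, with DESeq2, without the filter on low counts and with limma-voom. The number with an unadjusted p under 0.05 was 3, and it was 6 without the filter, 5 with the replicate block, 6 with the correction for length and GC content and 2 to 4 with 1 library left out. For partner genes it was 3, and it was 7 with upper-quartile normalization, 8 without the filter, 6 with the replicate block, 15 with limma-voom, 8 with the length and GC correction and 2 to 12 with 1 library left out, 12 without Si-HOXA3 replicate 2 and 5 without Si-HOXA3 replicate 1 (over all genes 13.4% passed with limma-voom and 10.7% without Si-HOXA3 replicate 2, against 6.36%). Over the members the median ran from -0.20 to -0.04 with 1 library left out, -0.04 without Si-HOXA3 replicate 2, and that of HOXA3 from -0.40 to -0.15. ITGAV turned from 0.01 to -0.0041 with library sizes only and -0.0256 with limma-voom, ITGAE to -0.081 with limma-voom, and ITGB6 to 0.0042 with limma-voom and 0.0071 with the length and GC correction. With 1 library left out ITGA5 ran from -0.1758 to 0.0197, ITGAE from -0.1396 to 0.2382, ITGAV from -0.0421 to 0.0711, ITGB6 from -0.2018 to 0.0753 and LAMA1 from -0.3595 to 0.0056, and the cause of these changes was not tested. Whether replicate numbers pair the libraries is not settled. Deviations from the group mean correlated at 0.142, 0.104 and -0.059 between equal numbers. Replicates 1 and replicates 2 each correlated best with their equal number, but NC replicate 3 and Si-HOXA3 replicate 3 did not. These deviations sum to 0 within a group, so the correlations cannot exclude a pairing. The block changed no member's adjusted call. Using the longest transcript as length raised levels per kb, ITGB1 to 121.5 and ITGA3 to 13.5, and left the 12 highest genes the same. Depth limits what can be said of the 12 untested members.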
